A study of Homo sapiens with 12 samples.

Results

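The genes described here encode small nucleolar RNAs (snoRNAs) and small Cajal body-specific RNAs (scaRNAs), taken as every row whose symbol starts with SNORD, SNORA or SCARNA and whose RSEM expected counts sum to at least 50 over the 12 libraries. The rule gave 99 members of 27968 genes, of which 66 were SNORA, 15 SNORD and 18 SCARNA genes. Another 453 rows with these prefixes fell under the threshold, and 287 of them had no count in any library. SCARNA4 and SNORA80A, with a summed count of 50 each, stood just inside the threshold, and SNORA63D with 49 and SNORA14A with 47 stood just outside. Members were thus chosen by their summed read count, so a gene read mainly in 1 group passed through that group.

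A549, a lung cancer cell line, was sequenced in 3D culture in Matrigel (a basement membrane matrix) on day 4 and in 2D culture at about 80% confluence. MDA-MB-231, a cell line from a breast cancer, was sequenced in the same pair of cultures, with 3 libraries in each of the 4 groups. Medium was DMEM with 10% FBS throughout, no treatment was given, and each tumour type is represented by a single cell line. The series asks which genes of cancer cells respond to extracellular matrix. The labels give numbered samples without naming separate cultures, so the p-values below describe the spread between these libraries, which may be technical. The fit behind these p-values pooled the spread of each gene over the 4 groups, although the groups differed. The common coefficient of variation beyond counting error was 0.171 for A549 3D. It was 0.036 for A549 2D and 0.053 to 0.054 for MDA-MB-231. For the median member A549 3D had 0.224, and the other groups had 0.070 to 0.084. P-values that involve A549 3D may thus be too small. Depth ran from 5609327 to 28171901 expected counts per library. Levels are given in CPM, the reads of a gene scaled to a common library total of 1000000. The 5 A549 markers summed to 29141 to 36268 CPM in A549 3D and 15826 to 16051 in A549 2D, against 331 to 420 CPM across the MDA-MB-231 libraries. The 4 MDA-MB-231 markers summed to 1238 to 1500 CPM in A549 3D and 2782 to 2816 in A549 2D, against 6426 to 6673 CPM in MDA-MB-231 3D and 5605 to 5783 in MDA-MB-231 2D. In 2D a marker of each list was called in the opposite direction, EPCAM at −2.51 and CAV1 at 0.27 (log2 fold change of A549 over MDA-MB-231), while in 3D all markers of these 2 lists lay on the side of their line. ESR1, PGR and ERBB2, listed as low in MDA-MB-231, summed to 64.8 to 91.2 CPM in A549 3D and 74.2 to 80.7 in A549 2D. In MDA-MB-231 they summed to 71.3 to 74.5 CPM in 3D and 45.7 to 52.6 in 2D, so this list did not separate the lines in 3D. Each list of leukocyte, fibroblast, endothelial or erythroid markers summed to at most 11.6 CPM in any library.

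SnoRNAs work in the nucleolus as guides. A box C/D snoRNA (SNORD) pairs with ribosomal RNA and places a ribose methyl group through the methyltransferase fibrillarin (FBL), and a box H/ACA snoRNA (SNORA) directs conversion of a uridine to pseudouridine by dyskerin (DKC1). ScaRNAs carry the same boxes but sit in Cajal bodies, where they guide modification of spliceosomal small nuclear RNAs. A few snoRNAs, U3, U8, U22 and U17 among them, are needed for cleavage of the ribosomal RNA precursor. Most human snoRNAs are trimmed out of introns of host genes after splicing, so a snoRNA and its host messenger share a promoter but not a decay route.

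Sequences of 6 members on which the results turn are shown 5′ to 3′ in DNA letters, from GENCODE 29 on GRCh38. The deposited tables were made on hg19 and hold no coordinates, so the positions belong to GRCh38. Capitals mark the C box TGATGA in the first 25 bases and the D box CTGA in the last 25 bases of the SNORD genes. In the SNORA genes they mark the ANANNA match nearest the middle (the H box pattern) and ACA in the last 6 bases. Only the strand of the RNA was searched.
SNORD22 (U22, intron of SNHG1, chr11:62852910-62853035, minus strand): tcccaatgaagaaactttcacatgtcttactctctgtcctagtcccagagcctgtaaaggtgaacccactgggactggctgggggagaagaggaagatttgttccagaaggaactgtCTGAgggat
SNORD17 (intron of SNX5, chr20:17962710-17962946, minus strand): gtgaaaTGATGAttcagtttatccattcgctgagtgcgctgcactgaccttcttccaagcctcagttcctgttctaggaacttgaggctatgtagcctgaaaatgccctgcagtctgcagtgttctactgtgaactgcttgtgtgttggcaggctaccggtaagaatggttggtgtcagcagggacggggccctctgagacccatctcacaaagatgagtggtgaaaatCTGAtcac
SNORA73B (a U17 gene, intron of RCC1, chr1:28508559-28508762, plus strand): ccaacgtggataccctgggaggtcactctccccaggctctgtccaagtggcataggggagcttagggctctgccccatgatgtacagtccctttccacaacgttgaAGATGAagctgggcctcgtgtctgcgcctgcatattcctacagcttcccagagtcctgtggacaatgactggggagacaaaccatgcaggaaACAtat
SNORA63 (E3, intron of EIF4A2, chr3:186787300-186787431, plus strand): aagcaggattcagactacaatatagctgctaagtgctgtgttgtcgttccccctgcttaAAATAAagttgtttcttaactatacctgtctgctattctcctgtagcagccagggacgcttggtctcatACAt
SNORA81 (another intron position in EIF4A2, chr3:186786675-186786852, plus strand): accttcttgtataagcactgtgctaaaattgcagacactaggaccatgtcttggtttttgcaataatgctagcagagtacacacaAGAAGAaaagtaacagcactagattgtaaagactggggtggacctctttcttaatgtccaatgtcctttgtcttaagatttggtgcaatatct
SNORA53 (intron of SLC25A3, chr12:98599635-98599883, plus strand): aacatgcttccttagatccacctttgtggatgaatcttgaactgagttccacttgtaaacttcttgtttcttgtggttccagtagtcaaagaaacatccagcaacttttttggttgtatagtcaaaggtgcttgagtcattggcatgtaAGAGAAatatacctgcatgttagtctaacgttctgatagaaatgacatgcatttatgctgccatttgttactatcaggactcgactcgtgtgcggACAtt
The exact letters TGATGA were not in the first 25 bases of SNORD22, and ACA was not in the last 6 bases of SNORA81. A GENCODE sequence was found for 86 members, 58 of them at the length given in the tables. ACA stood in the last 6 bases of 57 of 61 SNORA members, against 90.1% of 142 SNORA genes in GENCODE 29. TGATGA stood in the first 25 bases of 7 of 11 SNORD members, against 69.8% of 275 SNORD genes.

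Members were mainly the longer rows. Of 295 rows listed at under 100 bases, 2 passed the threshold, against 66 of 178 rows of 120 to under 150 bases and 18 of 26 rows of 200 bases or more. The SNORD rows under the threshold had a median length of 78 bases, so the members hold the longer SNORD genes (median 137 bases) beside SNORA genes (median 135) and SCARNA genes (median 268). RSEM assigns each gene an effective length, the number of start positions that a fragment of the library's size allows, and a gene shorter than most fragments has few. Fragments averaged 133, 140 and 137 bases in A549 3D, against 175, 186 and 177 in A549 2D. In MDA-MB-231 they averaged 180, 184 and 187 bases in 3D, against 214, 216 and 207 in 2D. The median member had an effective length of 19.1, 15.6 and 14.9 bases in A549 3D, against 5.7, 3.6 and 5.5 in A549 2D. In MDA-MB-231 it was 5.5, 5.3 and 4.0 in 3D, against 2.7, 2.5 and 3.0 in 2D. In both lines the 3D libraries thus had the shorter fragments and gave the members more effective length.

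SnoRNA and scaRNA genes took far more of the reads in A549 than in MDA-MB-231, and within A549 more in 3D. Members summed to 4183, 5852 and 3428 CPM in A549 3D, against 1518, 1360 and 1452 CPM in A549 2D. In MDA-MB-231 they summed to 7.42, 8.77 and 9.42 CPM in 3D, against 2.89, 3.18 and 2.49 CPM in 2D. The groups did not overlap within either line, and every A549 library lay above every MDA-MB-231 library. In bulk RNA a change in the share of cells of a kind and a change in RNA per cell cannot be told apart.

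By class, SNORA genes summed to 1758, 2100 and 1135 CPM in A549 3D, against 676, 483 and 646 CPM in A549 2D. SNORD genes summed to 977, 1477 and 473 CPM in A549 3D, against 268, 319 and 237 CPM in A549 2D. SCARNA genes summed to 1448, 2276 and 1821 CPM in A549 3D, against 574, 558 and 569 CPM in A549 2D. All 3 classes were separated between the cultures of A549. In MDA-MB-231 the SCARNA sum separated the cultures, with 4.73, 5.29 and 6.38 CPM in 3D, against 0.330, 0.459 and 0.341 CPM in 2D. SCARNA10 and SCARNA2 held 211 and 50 of the 284.79 SCARNA reads in MDA-MB-231 3D, against 2 and 0 of 23 in 2D. The separation thus rests mainly on these genes and was not tested for the other scaRNAs as a class. The SNORA sum did not overlap there either, but by a narrow gap, at 1.12, 2.07 and 1.31 CPM in 3D, against 1.08, 0.867 and 0.829 CPM in 2D. The SNORD sum there was 1.57, 1.41 and 1.73 CPM in 3D, against 1.49, 1.86 and 1.32 CPM in 2D, so the groups overlapped. SNORD141A and SNORD141B, which are identical rows, each held 24.42 of the 79.84 SNORD reads in MDA-MB-231 3D and 25.08 of 95.16 in 2D. SNORD17 held 28 and 39, so the SNORD sum there speaks for few sequences.

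**Figure D1:**
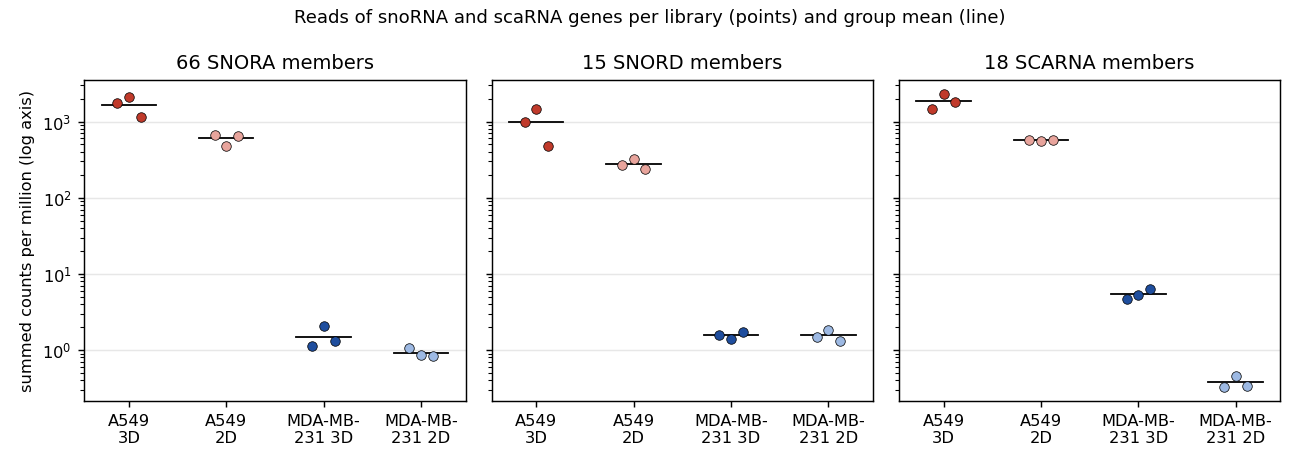
Summed CPM of the SNORA, SNORD and SCARNA members (log axis) in each library (points) with the group mean (line). A549 libraries lie at 237 to 2276 and MDA-MB-231 libraries at 0.330 to 6.38. The SCARNA panel shows the separation of MDA-MB-231 3D from 2D, which rests mainly on SCARNA10 and SCARNA2.

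On the length-scaled TPM values the picture changed in both lines. SNORA genes summed to 65016, 82223 and 50976 TPM in A549 3D, against 89529, 86452 and 89324 TPM in A549 2D, which is the opposite order to the counts. SCARNA genes, the longest class, kept their order with 10536, 14684 and 13276 TPM in A549 3D, against 8403, 8415 and 8680 TPM in A549 2D. SNORD genes overlapped at 17251, 21581 and 10226 TPM in A549 3D, against 9460, 12114 and 8624 TPM in A549 2D. The direction of the SNORA sum in A549 therefore rests on whether counts are divided by effective length, and that length is a few bases in A549 2D. This holds for the sum, in which genes with many reads weigh most. Gene by gene, the fit with effective length given below still called 34 of 66 SNORA genes higher and 10 lower in A549 3D. In MDA-MB-231 the order of all members turned round too, with 338, 499 and 455 TPM in 3D, against 829, 647 and 561 TPM in 2D, groups that did not overlap. There SNORA genes summed to 196, 418 and 346 TPM in 3D, against 658, 615 and 520 TPM in 2D. The SCARNA sum kept its order at 122, 60.7 and 78.4 TPM in 3D, against 16.1, 10.1 and 6.78 TPM in 2D. Most SCARNA reads in MDA-MB-231 3D came from SCARNA10 and SCARNA2. A part of fragment size in the count differences was not tested beyond the fit with effective length given below.

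The comparison of 3D with 2D in A549 covered 95 of the 99 members, since SCARNA4, SCARNA18, SNORD32A and SNORD89 did not pass the filter on low counts. By edgeR's quasi-likelihood test with Benjamini-Hochberg adjustment over 15304 genes, 79 of the 95 were higher in A549 3D, 1 was lower and 15 did not pass an adjusted p of 0.05. Over all genes 34.1% were higher and 31.5% lower. The libraries of the 2 cultures did not overlap for 80 of the 95, beside 64.8% of all genes. The counts were 57 of 66 SNORA, 9 of 13 SNORD and 13 of 16 SCARNA genes higher, and the median log2 fold change was 2.35, beside 0.03 over all genes tested. Since summed counts chose the members, a gene read mainly in A549 3D had to lie on that side. Of the 57 members with at least 50 counts in the A549 2D libraries alone, 43 were higher and 1 lower in A549 3D, with a median log2 fold change of 1.50.

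With each gene's effective length entered as an offset, 91 members could be fitted, and 49 were higher and 11 lower in A549 3D. Their median log2 fold change was 0.90 with the offset and 2.35 without. Over all genes 33.6% were higher and 31.2% lower in that fit. By class, 34 of 66 SNORA genes were higher and 10 lower, 5 of 9 SNORD genes were higher and 0 lower, and 10 of 16 SCARNA genes were higher and 1 lower. Among the 18 members of 200 bases or more, 12 were higher and 0 lower with the offset, against 14 higher and 0 lower without it. Among 64 members of 120 to under 150 bases, 32 were higher and 10 lower with it, against 56 higher and 1 lower without it. The longer members thus kept most of their calls, and the loss fell on genes near the fragment length.

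**Figure D2:**
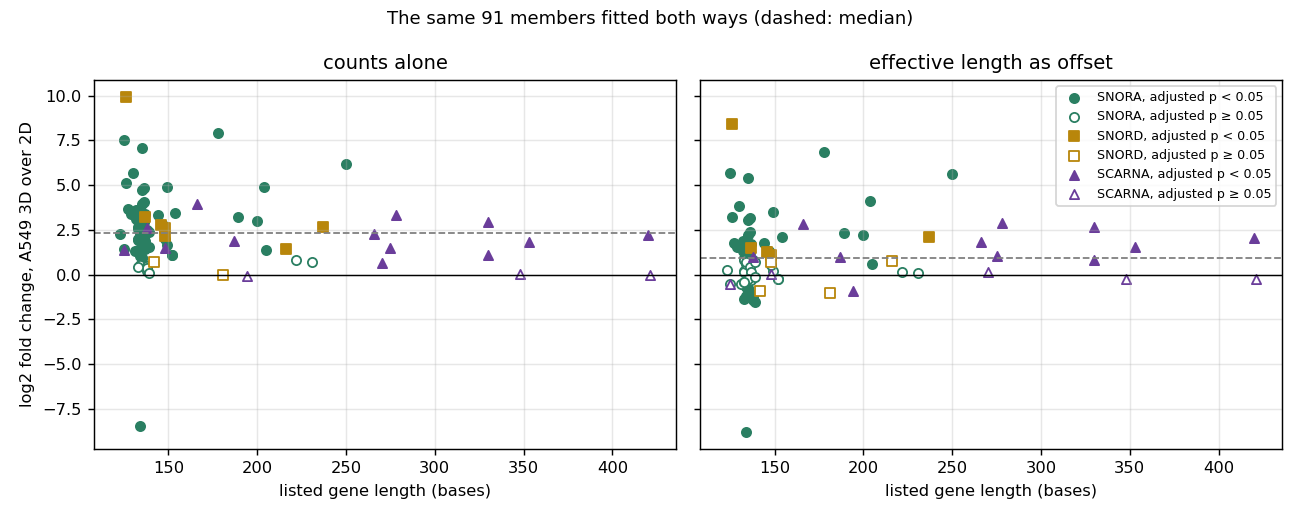
Log2 fold change of A549 3D over 2D against listed gene length for the 91 members fitted both ways, from counts alone (left) and with effective length as an offset (right); filled symbols pass an adjusted p of 0.05 and the dashed line is the median. The median lies at 2.35 on the left and 0.90 on the right, and the points that drop below 0 on the right are mainly short SNORA genes.

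Among snoRNAs needed for ribosomal RNA processing, 2 of the 15 listed genes were members, SNORD22 and SNORA73B. U3, U8, U13 and U14 genes were not analysed here. SNORD22 had 91, 30 and 116 reads in A549 3D, against 0, 0 and 0 in A549 2D. That is at least 112-fold higher in A549 3D against a floor of 3 counts over the group. A549 3D holds 237 of its 239 summed counts, so it became a member through that group and its difference is a description. Its effective length was 13.4, 10.5 and 9.9 bases in A549 3D, against 3.3, 2.0 and 3.2 in A549 2D. Its host SNHG1, a noncoding gene whose introns carry several box C/D snoRNAs, moved the other way, at 21.4, 29.5 and 27.9 CPM in A549 3D, against 72.7, 77.6 and 70.7 CPM in A549 2D. SNORA73B had 716, 714 and 440 CPM in A549 3D, against 256, 211 and 247 CPM in A549 2D. It rose by a log2 fold change of 1.39 ± 0.17 (SE, edgeR adjusted p = 3.28e-06), and by 0.61 with the effective-length offset, but limma on log2(TPM + 1) gave 0.01 and ended the call (adjusted p = 1.0). Its host RCC1, the exchange factor for the GTPase Ran, fell in A549 3D to 51.7, 45.9 and 58.3 CPM, against 143, 135 and 136 CPM in A549 2D.

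The other SNORD genes with most reads divided into steady and uneven ones. SNORD17, a guide for methylation of large-subunit ribosomal RNA, had 771, 652 and 314 CPM in A549 3D, against 91.1, 95.5 and 83.3 CPM in A549 2D. Its log2 fold change was 2.68 ± 0.23 (SE, edgeR adjusted p = 5.67e-08) and 2.08 with the offset. SNORD10, which lies in EIF4A1 and guides methylation of the U6 spliceosomal RNA, had 98.7, 111 and 62.1 CPM in A549 3D, against 16.9, 12.5 and 15.2 CPM in A549 2D. Both genes separated the cultures. SNORD94, in PTCD3, had 24.95, 26.8 and 13.1 CPM in A549 3D, against 2.98, 1.97 and 1.80 CPM in A549 2D. SNORD15B, in the ribosomal protein gene RPS3, had 17.05, 20.5 and 12.5 CPM in A549 3D, against 2.54, 1.70 and 2.92 CPM in A549 2D. These were separated too, with log2 fold changes of 3.20 and 2.76, and of 1.50 and 1.28 with the offset. Limma on log2(TPM + 1) ended the calls of SNORD10 (0.54, adjusted p = 0.539) and SNORD15B (0.74, adjusted p = 0.363).

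SNORD133 was called at a log2 fold change of 1.45, but its libraries overlapped, at 245, 780 and 111 CPM in A549 3D, against 126, 180 and 104 CPM in A549 2D. Without replicate 2 of A549 3D the value was 0.34 and did not pass, and it was not called without replicate 1 or 3 of A549 2D or by DESeq2 (adjusted p = 0.183) either. SNORD97, in EIF4G2, had 20.6, 11.7 and 1.10 CPM in A549 3D, against 7.02, 5.79 and 5.11 CPM in A549 2D, and did not pass. Its 3D libraries spanned the range of the 2D ones, and its log2 fold change of 0.72 became −0.44 without replicate 1 of A549 3D and 1.47, past the threshold, without replicate 3.

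Of the SNORA genes with most reads, SNORA63 (E3) had 233, 362 and 111 CPM in A549 3D, against 46.7, 30.4 and 33.9 CPM in A549 2D. SNORA53 had 103, 109 and 39.1 CPM in A549 3D, against 1.05, 1.06 and 1.24 CPM in A549 2D. At 250 listed bases it has the greatest listed length of the SNORA members, and its log2 fold change was 6.18 ± 0.42 (SE, edgeR adjusted p = 1.99e-08), with 5.64 in the fit with the offset. SNORA23, in the importin gene IPO7, had 94.1, 84.6 and 40.3 CPM in A549 3D, against 8.02, 6.59 and 7.92 CPM in A549 2D. SNORA63 and SNORA23 were also separated, with log2 fold changes of 2.65 and 3.24, and of 0.90 and 2.32 with the offset. Limma on log2(TPM + 1) gave SNORA63 0.22 and ended its call (adjusted p = 0.924).

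SNORA48 and SNORA70 depended on the length setting. SNORA48 had 233, 208 and 149 CPM in A549 3D, against 123, 65.2 and 124 CPM in A549 2D, a log2 fold change of 0.91 that was −0.81 with the offset (edgeR adjusted p = 3.75e-05). SNORA70, in the ribosomal protein gene RPL10, had 55.2, 92.8 and 34.0 CPM in A549 3D, against 21.9, 16.96 and 23.0 CPM in A549 2D, a log2 fold change of 1.49 that was −0.25 with the offset.

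Some genes were nearly unread in A549 2D and became members through their A549 3D reads, so their differences are given as descriptions. SNORA81 had 392, 149 and 515 reads in A549 3D, against 2, 1 and 4 in A549 2D, which was 213-fold by summed counts (95% interval 104 to 535). SNORA77B summed to 157 reads in A549 3D, against 1 in A549 2D, a ratio of 223 (95% interval 39.5 to 8877). SNORA46 summed to 130 reads in A549 3D, against 1 in A549 2D, a ratio of 185 (95% interval 32.6 to 7360). These intervals cover counting error only. With the offset their log2 fold changes were 6.86, 5.68 and 5.42.

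SNORA31B was the 1 member called lower, with 0, 0 and 0 reads in A549 3D, against 61.6, 39.7 and 33.9 in A549 2D. SNORA31, a row of the same number under the threshold, had 14, 2 and 27 reads in A549 3D, against 0, 0 and 1 in A549 2D, so the pair moved in opposite directions. SNORA31B was not found in GENCODE 29, its likeness to SNORA31 was not measured, and its value is uncertain. All of its reads in A549 lie in 2D, through which it became a member.

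The 5 scaRNAs with the highest mean CPM were all higher in A549 3D. SCARNA10 (U85, which carries both kinds of box and guides U5) had 487, 738 and 649 CPM in A549 3D, against 82.2, 88.2 and 70.5 CPM in A549 2D. Its log2 fold change was 2.96 ± 0.14 (SE, edgeR adjusted p = 5.86e-11), with 2.64 in the fit with the offset. SCARNA2, a guide for the U2 spliceosomal RNA, had 277, 264 and 276 CPM in A549 3D, against 57.6, 52.9 and 62.7 CPM in A549 2D. Its log2 fold change was 2.24 ± 0.10 (SE, edgeR adjusted p = 4.27e-10) and 2.03 with the offset. SCARNA5 had 302, 484 and 280 CPM in A549 3D, against 32.1, 40.2 and 32.4 CPM in A549 2D, a log2 fold change of 3.34. SCARNA13 had 255, 327 and 337 CPM in A549 3D, against 113, 102 and 109 CPM in A549 2D, a log2 fold change of 1.50. SCARNA7 had 163, 286 and 193 CPM in A549 3D, against 97.2, 98.2 and 101 CPM in A549 2D, a log2 fold change of 1.10. All 5 separated the cultures and stayed higher with the offset. Limma on log2(TPM + 1) ended the calls of SCARNA13 (0.48, adjusted p = 0.170) and SCARNA7 (0.19, adjusted p = 0.592), and SCARNA7 also did not pass edgeR's test against a log2 fold change of 1 (adjusted p = 0.441). SCARNA9L, SCARNA17 and SCARNA28 did not pass, at log2 fold changes of 0.05, −0.05 and −0.08. With the offset SCARNA28 was called lower, at −0.93 (edgeR adjusted p = 0.000772), while SCARNA9L and SCARNA17, at −0.24 and −0.26, were not called.

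**Figure D3:**
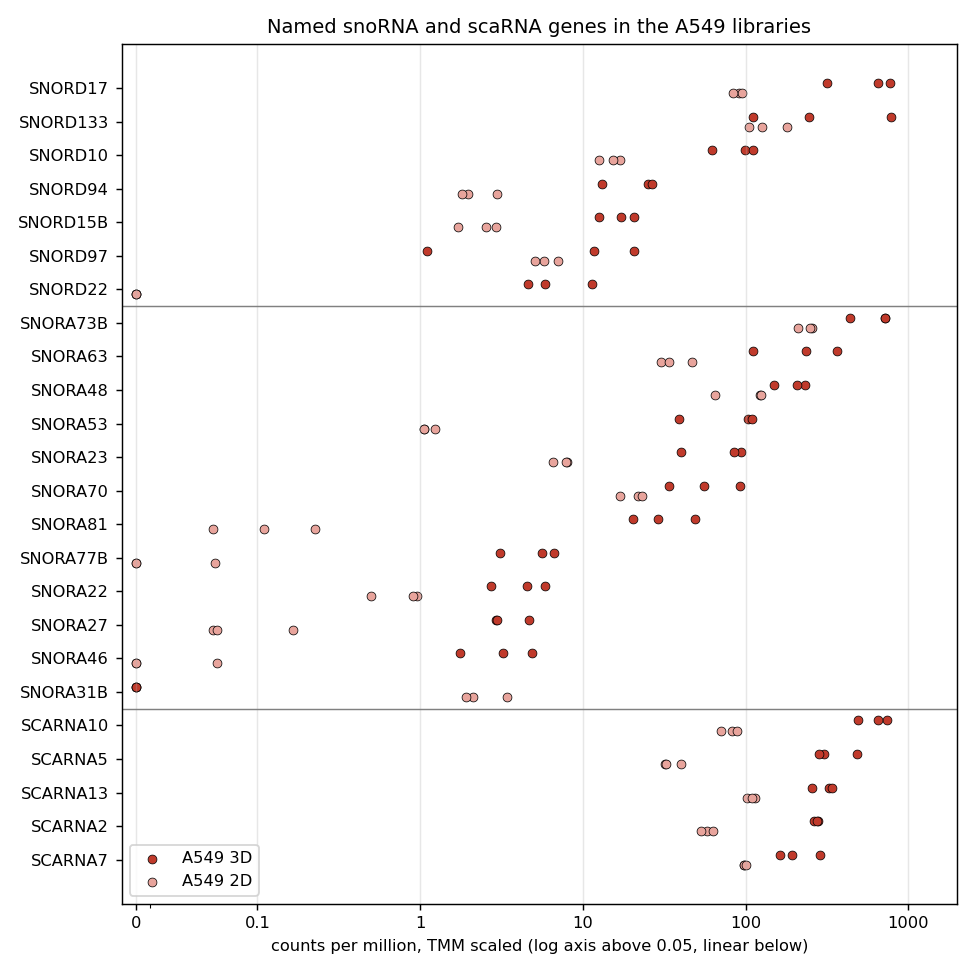
TMM-scaled CPM of the named members in the 3 libraries of A549 3D (dark) and A549 2D (pale), on a log axis above 0.05 and a linear one below. Most members separate the cultures, while SNORD133 and SNORD97 overlap and SNORA31B lies at 0 in A549 3D.

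In the fitted values, members inside 1 host gene differed widely among themselves for some hosts. In A549, SNORA81 and SNORA63 of EIF4A2 had log2 fold changes of 7.89 and 2.65, and SNORA46 and SNORA50A of CNOT1 had 7.06 and 2.08. SNORA18 and SNORA8 of TAF1D had 3.27 and 0.09, the second not called, and SNORA44 and SNORA16A of SNHG12 had 3.57 and 0.52, the second not called. Other hosts held members with similar values, such as SNORA74A and SNORA74D of MATR3 at 3.02 and 3.31, or SNORA2A and SNORA2C of KANSL2 at 3.95 and 3.39. Over the 14 hosts with more than 1 tested member, the gap between the highest and lowest member ran from 0.30 to 5.24. SNORA81, SNORA46, SNORA18 and SNORA44 had 7.05, 1, 17 and 15.27 summed reads in A549 2D, and SNORA50A, SNORA74D and SNORA2A had 16, 42 and 8. All of these became members through their A549 3D reads. The gaps, including the 5.24 of EIF4A2, and the similar values in MATR3 and KANSL2 are therefore descriptions. The pairs differ in length and effective length, and the differences within a host were not tested.

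Some members are close copies, so reads could be split between them. SNORA59A and SNORA59B have 100% identical sequences and identical rows, and SNORD141A and SNORD141B have identical rows. SNORA7A and SNORA7B were 98.6% identical over the aligned bases, and SNORA22 and SNORA22C 98.5%. Their values are uncertain one by one. The SNORA71 copies of SNHG17 were 83.1% to 90.3% identical, and SNORA71B was called at 2.95 while SNORA71A, SNORA71C and SNORA71D, at 0.21, 0.45 and 0.34, were not. SNORA71B, with 112 reads in A549 3D against 22 in A549 2D, became a member through its A549 3D reads. Its contrast with the other copies is therefore a description.

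All 87 members placed in GENCODE 29 lay inside a host gene on its strand, 68 in an intron and 19 overlapping an exon, with retained-intron transcripts left out. Over an exon, host and member reads cannot be told apart. Reads of host introns or retained introns may also be counted to the members in introns, which was not tested. Of 82 tested pairs of member and host, with 65 hosts, 13 hosts were higher and 32 lower in A549 3D, beside 34.1% and 31.5% of all genes. In 40 pairs the member was higher and the host lower, in 15 both were higher, and in 19 the member was higher and the host not called. The member's log2 fold change lay above the host's in 81 of 82 pairs, the exception being SCARNA17 in SNHG22. Summed counts chose the members but not the hosts, so a member read mainly in A549 3D had to lie on the higher side. Of the members, 57 had at least 50 counts in the A549 2D libraries alone. The pair counts given here, with or without the offset, are therefore descriptions. With the effective-length offset on the member, 61 of 80 pairs had the member above the host, and in 27 the member was called higher and the host lower. Across the 82 pairs Spearman's rho between the changes was 0.11, a description over genes that share libraries and, in part, hosts. Members in introns were higher in 59 of 66 tested cases and those overlapping exons in 16 of 17.

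**Figure D4:**
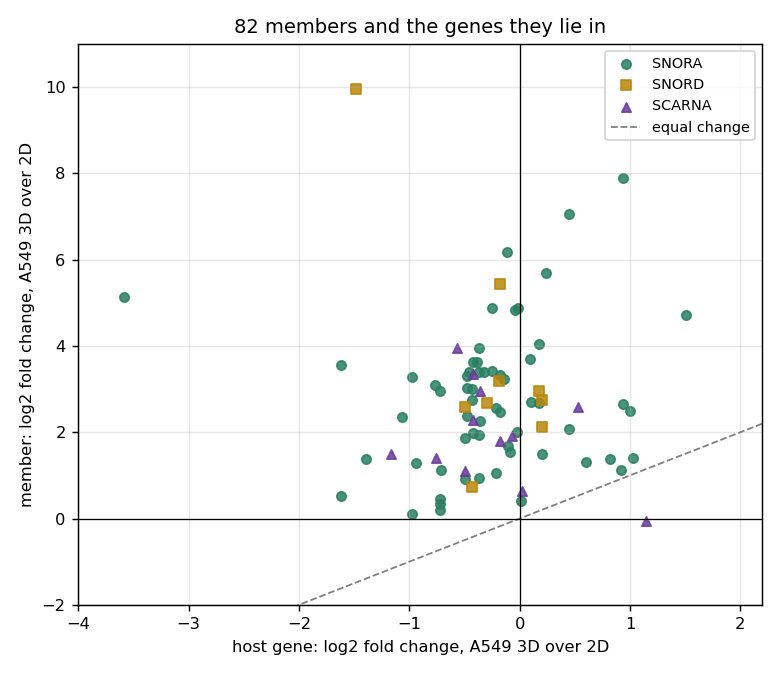
Log2 fold change of A549 3D over 2D for each of 82 members (vertical) against the gene it lies in (horizontal), by class; the dashed line marks equal change. Hosts lie between −3.59 and 1.50 and 81 of 82 points lie above the line.

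None of the 8 core proteins of these particles that were found was called higher in A549 3D and 4 were lower, beside 34.1% higher and 31.5% lower over all genes, which is also the background for the lists below. Of 4 box C/D core proteins found, NOP56 fell to 147, 136 and 180 CPM in A549 3D, against 364, 364 and 336 CPM in A549 2D. NOP58 fell to 47.3, 61.5 and 53.9 CPM in A549 3D, against 168, 165 and 150 CPM in A549 2D, and FBL and SNU13 were not called. Of 4 box H/ACA proteins, DKC1 fell to 80.1, 77.3 and 96.5 CPM in A549 3D, against 210, 207 and 199 CPM in A549 2D, GAR1 fell by 0.89 on the log2 scale, and NHP2 and NOP10 were not called. Of 13 assembly and export factors 10 fell, including NOLC1 at −1.11 and the export receptor XPO1 at −0.98, and PIH1D1 and NAF1 rose. The Cajal body genes COIL, WRAP53 and SMN1 all fell, by 0.46, 0.71 and 0.47. Of 6 proteins of the U3 particle 5 fell and IMP3 rose. Of 20 listed SNHG host genes 13 fell and 5 rose.

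Other structured RNAs moved with the members. All 7 tested ones were higher in A549 3D, with a median log2 fold change of 4.04. RPPH1, the RNA of ribonuclease P, had 45584, 47210 and 41368 CPM in A549 3D, against 3599, 3507 and 4092 CPM in A549 2D. RMRP, the RNA of ribonuclease MRP, had 18547, 19967 and 14683 CPM in A549 3D, against 8080, 9021 and 8046 CPM in A549 2D. TERC, the telomerase RNA, which also has an H/ACA end, had 146, 123 and 118 CPM in A549 3D, against 41.9, 36.8 and 47.0 CPM in A549 2D. The minor spliceosome RNA gene RNU12 had 27.7, 32.8 and 11.3 CPM in A549 3D, against 0.276, 0.160 and 0.225 CPM in A549 2D. Among other tested genes, 5 of 5 under 200 bases and 72 of 122 of 200 to under 500 bases were higher in A549 3D. Ribosomal RNA took 16.5%, 4.72% and 3.53% of counts in A549 3D, against 0.483%, 0.311% and 0.408% in A549 2D. These shares moved with the culture, and their part in the members' differences was not tested.

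In MDA-MB-231, members were barely read in either culture. Of the 99, 61 had no read in any 3D library and 62 none in any 2D library. By edgeR 3 of 95 tested members were higher in MDA-MB-231 3D and 0 lower, beside 33.4% higher and 34.2% lower over all genes. At an unadjusted p under 0.05 the counts were 4 and 0, and DESeq2 called 5 and 0. SCARNA10 had 42, 81 and 88 reads in MDA-MB-231 3D, against 1, 0 and 1 in MDA-MB-231 2D, a ratio of 150 (95% interval 40.9 to 1243) and an adjusted p of 1.29e-08 by edgeR. SCARNA2 had 6, 19 and 25 reads in MDA-MB-231 3D, against 0, 0 and 0 in MDA-MB-231 2D, at least 23.6-fold higher against a floor of 3 counts over the group (edgeR adjusted p = 1.51e-06). These 2 scaRNAs were among 6 of 95 tested members whose libraries did not overlap, beside 75.2% of all genes, and SCARNA10 alone made up 47.5% of member reads in MDA-MB-231 3D.

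SNORA73B had 4, 13 and 8 reads in MDA-MB-231 3D, against 5, 0 and 0 in MDA-MB-231 2D (edgeR adjusted p = 0.0186). The unscaled reads overlapped, while the scaled values did not, at 0.355, 0.682 and 0.438 CPM in 3D, against 0.211, 0 and 0 CPM in 2D. The call was lost without replicate 2 of MDA-MB-231 3D or without replicate 2 or 3 of MDA-MB-231 2D. SNORD17 had 9, 7 and 12 reads in MDA-MB-231 3D, against 15, 10 and 14 in MDA-MB-231 2D. Its ratio after scaling was 1.02, with a 95% interval of 0.603 to 1.70, beside a ratio of 5.03 in A549. The interval covers counting error only and leaves out the spread between libraries. SNORD141A and SNORD141B each had 24.4 reads over the MDA-MB-231 3D libraries, against 25.1 over the 2D ones, and as identical rows they count as 1 sequence.

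**Figure D5:**
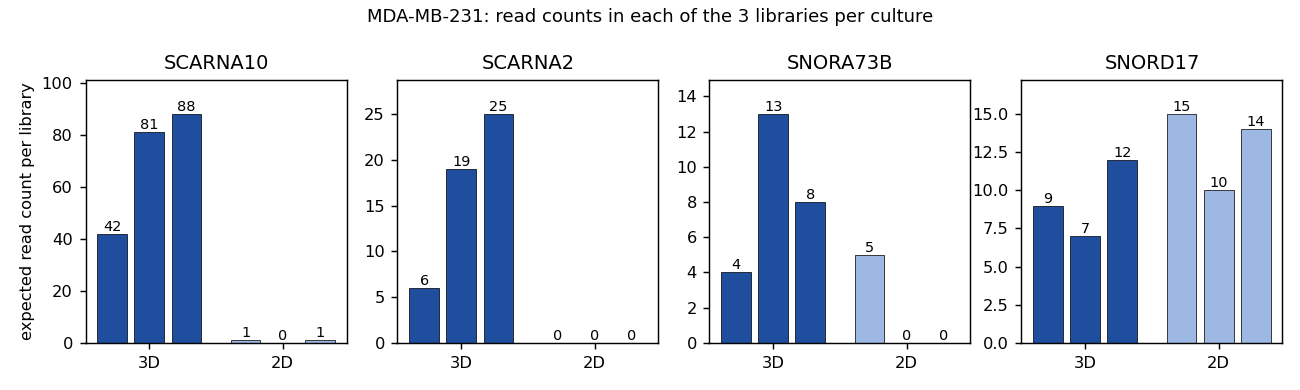
Expected read counts of 4 members in each of the 3 libraries of MDA-MB-231 3D (left bars) and 2D (right bars), each panel with its own axis from 0. SCARNA10 and SCARNA2 were read almost entirely in 3D, SNORA73B in few reads of both and SNORD17 in both.

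The hosts were expressed in MDA-MB-231. RCC1, the host of SNORA73B, had 105, 109 and 115 CPM in MDA-MB-231 3D, against 104, 102 and 100 CPM in MDA-MB-231 2D. NCAPD2, the condensin gene that holds SCARNA10, had 262, 297 and 292 CPM in MDA-MB-231 3D, against 258, 274 and 252 CPM in MDA-MB-231 2D, and was not called. SNHG1 had 77.7, 71.2 and 70.0 CPM in MDA-MB-231 3D, against 124, 134 and 131 CPM in MDA-MB-231 2D. The core proteins were expressed too: FBL had 254, 256 and 264 CPM in MDA-MB-231 3D, against 152, 156 and 145 CPM in MDA-MB-231 2D, and DKC1 had 218, 226 and 221 CPM in 3D, against 216, 214 and 221 CPM in 2D. Of the 8 core proteins 3 rose in MDA-MB-231 3D (FBL, SNU13 and NHP2) and 1 fell (NOP58), beside 33.4% higher and 34.2% lower over all genes, so the share that rose was near the background.

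Between the lines, summed counts that came mostly from A549 chose the members, so the line difference is given as a description. Of 95 tested members 92 passed as higher in A549 than in MDA-MB-231 in 3D and 0 as lower, beside 43.9% higher and 39.2% lower over all genes. In 2D 86 passed as higher and 0 as lower, beside 42.8% higher and 38.8% lower over all genes. DESeq2 also called 0 lower in both cultures, as did an unadjusted p under 0.05. The other structured RNAs showed the same order. RPPH1 had 8.80, 11.1 and 15.1 CPM in MDA-MB-231 3D, against 0.253, 0.045 and 0.608 CPM in 2D, and RMRP had 3.55, 5.24 and 7.89 CPM in 3D, against 0.802, 0.994 and 0.434 CPM in 2D, far below the A549 values above. Histone genes, 74 in number, showed it too. Every A549 library gave them 0.783% to 1.10% of its counts, while every MDA-MB-231 library gave them 0.0174% to 0.0278%. Ribosomal RNA in 2D had the opposite order, with 1.12% to 1.18% for MDA-MB-231 against 0.311% to 0.483% for A549. The line gap was thus not confined to short structured RNAs, and its cause was not tested. Line and library handling cannot be told apart in these groups.

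The 3D changes differed between the lines for 7 tested members by edgeR's test of the difference (A549 minus MDA-MB-231). The difference was positive for 5 and negative for 2, beside 29.3% and 26.7% over all genes. A positive sign need not mean the larger change in A549. SNORA22, for example, was fitted at 2.35 in A549 and −3.20 in MDA-MB-231. The second value rests on 0 reads in 3D against 4 in 2D, so its size depends on the prior count and does not show the larger change. SCARNA10 differed by −3.94 ± 0.70 (SE, adjusted p = 0.000203), with log2 fold changes of 2.96 in A549 and 6.90 in MDA-MB-231, the second resting on 2 reads in 2D. SCARNA2 was also called (adjusted p = 0.000576), but with 0 reads in MDA-MB-231 2D its fitted size depends on the prior count. By summed counts it was 4.76-fold higher in A549 3D (95% interval 4.57 to 4.96) and at least 23.6-fold higher in MDA-MB-231 3D. SNORD17 differed by 2.65 ± 0.81 (adjusted p = 0.0112), at 2.68 in A549 and 0.03 in MDA-MB-231. SCARNA12, in the prohibitin gene PHB2, differed by 1.76 ± 0.61 (adjusted p = 0.0269), at 0.63 in A549 and −1.13 in MDA-MB-231, where 4 reads stood in 3D against 13 in 2D. SNORD22, SNORA27 and SNORA22 were also called, but they rest on 0 reads in MDA-MB-231 3D against 2, 1 and 4 in 2D, and all 3 lost the call without 1 or more single libraries. For members at 0 in all MDA-MB-231 libraries no difference could be estimated.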

How the data were processed

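RNA was sequenced in 12 libraries, 3 per group, from TRIZOL total RNA with a stranded, ribosomal-RNA-depleted kit, per the labels. The deposited tables hold RSEM gene results on hg19, per the submitters' processing notes; the aligner, annotation and strand use are not given in these sources. Expected counts, as deposited, split reads shared between genes. The TPM values deposited by the authors divide by effective length, and a gene of effective length 0 is listed at 0 TPM. The deposited length and effective length columns, in bases, gave the mean fragment length (their difference in genes of at least 2000 bases).

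Expected counts were rounded, filtered with filterByExpr (15304 genes, 95 members), scaled with TMM and fitted with edgeR 4.0.16 (R 4.3.3) quasi-likelihood over 4 group means, two-sided, with Benjamini-Hochberg adjustment at 0.05. CPM of single genes are TMM-scaled; class sums use library totals. Effective length as an offset was an alternative added after seeing the data. The fit was tested on simulated counts. DESeq2 1.42.0, limma 3.58.1 on log2(TPM + 1) and other alternatives were run. Groups at 0 were set to a floor of 3 counts per group; intervals are exact 95% ones for counting error alone, as PCR duplicates are no independent molecules. Few reads limit precision in MDA-MB-231, where most members had 0 to 3 counts, although its library totals lay within the range of A549.

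Members, gene lists and named genes were chosen with earlier results of these data known. Named were processing snoRNAs, the 6 SNORD, 6 SNORA and 5 SCARNA genes of highest mean CPM, up to 4 separated calls per direction and line, up to 3 per direction for the difference, the 6 members with most MDA-MB-231 counts, and their hosts and core proteins; others named were chosen after their values were seen. Hosts and sequences came from GENCODE 29 (GRCh38) by symbol, for 87 and 86 members. Same-numbered replicates of the 2 cultures did not deviate together, so numbers do not pair libraries.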

Additional observations from a re-analysis of the deposited data

Results flagged for a closer look

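The 3D change differed between the lines by edgeR's test of the difference (A549 minus MDA-MB-231, log2) for 7 members. The values were 12.30 for SNORD22, 6.74 for SNORA27, 5.54 for SNORA22, 2.65 for SNORD17, 1.76 for SCARNA12, −3.94 for SCARNA10 and −4.94 for SCARNA2. SNORD22, SNORA27, SNORA22 and SCARNA2 rest on groups at 0 counts, where the fitted size depends on the prior count and is no bound. SNORD22 lost the call without replicate 1 of MDA-MB-231 2D, which holds its only 2 MDA-MB-231 reads, and SNORA27 lost it in 6 of the fits that left out 1 library. SNORA22 lost it without replicate 2 or 3 of MDA-MB-231 2D.

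The 453 snoRNA and scaRNA rows under the count threshold, which enter no comparison, also held reads. They summed to 51.4, 42.3 and 24.3 CPM in A549 3D (mean 39.3), against 7.28, 4.64 and 5.78 CPM in A549 2D, so the groups did not overlap. In MDA-MB-231 they summed to 0, 0.302 and 0.154 CPM in 3D, against 0.141, 0.102 and 0.146 CPM in 2D.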

How the results depend on the processing

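Members higher in A549 3D numbered 79 and lower 1; limma on log2(TPM + 1) gave 38 and 14, a summed count of at least 200 gave 50 and 0 among 59 tested, and effective length as offset 49 and 11. In MDA-MB-231 3 were higher and 0 lower; DESeq2 gave 5 higher and limma 9 higher and 6 lower. The difference between lines (A549 minus MDA-MB-231) was positive for 5 and negative for 2. For the positive kind DESeq2 gave 13, and limma gave 26 positive and 13 negative. A summed count of at least 200 gave 3 positive, and a test against a log2 fold change of 1 gave 1. Members higher in A549 at a summed count of at least 200 were 59 in 3D and 57 in 2D. With the replicate block 5 members were higher in MDA-MB-231 3D and 8 had a positive difference between lines. Same-numbered libraries correlated at only −0.07 to 0.07, however, so the numbers do not pair them. The RLE, upper-quartile, no-filter, CPM-filter, 6-library and small-RNA-free fits kept every count within 1.5 times.

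Leaving out 1 library gave 77 to 83 higher and 1 to 3 lower members in A549 3D, and 2 to 7 higher in MDA-MB-231 3D. A positive difference between lines was called for 3 to 9 members. The extremes were 7 without replicate 2 of A549 3D, 9 without replicate 3 of A549 3D, and 3 without replicate 1 of MDA-MB-231 3D or replicate 2 of MDA-MB-231 2D.

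As summed TPM the members stood at 95256 in A549 3D against 107000 in A549 2D, and at 431 in MDA-MB-231 3D against 679 in MDA-MB-231 2D, the reverse order of the counts in both lines, although the A549 libraries overlapped. At a summed count of at least 200 they were 7.47 CPM in MDA-MB-231 3D and 1.80 in 2D.

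Single members changed direction as follows, in log2 fold change of A549 3D over 2D. Limma on log2(TPM + 1) gave −0.22 for SNORD133, −2.03 for SNORD97, −1.37 for SNORA48 and −0.87 for SNORA70. Effective length as offset gave −0.93, −0.81 and −0.25 for SNORD97, SNORA48 and SNORA70, and SNORD97 was −0.44 without replicate 1 of A549 3D. SNORD17 in MDA-MB-231, at 0.03, became −0.73 under limma, −0.36 with the offset and −0.15 to 0.33 without single libraries (−0.15 and −0.09 without replicates 1 and 3 of MDA-MB-231 3D, −0.10 without replicate 2 of MDA-MB-231 2D). Limma also ended the calls of 6 named members in A549 (SNORA73B, SNORD10, SNORD15B, SNORA63, SCARNA13 and SCARNA7) and of SNORA22 for the difference between lines. Of 769 alternative values for named members 723 kept direction and side of the threshold. Beyond the length terms, which the offset and TPM enter by construction, the cause was not tested.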
